A study of Mus musculus with 9 samples.

Results

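The ESCRT-III family was described in primary mouse microglia after control, Chd8, or Tsc2 siRNA treatment. The members were 10 genes of the family listed by name, Chmp1a, Chmp1b, Chmp2a, Chmp2b, Chmp3, Chmp4b, Chmp5, Chmp6, Chmp7, and Vps4b, out of 54119 genes in the RNA-seq data. All 10 were among the 16273 genes that passed a filter on low counts. The family was chosen by the counts of Chmp2a, which had been seen to be higher in Chd8 siRNA-treated microglia than in control, and the other 9 entered by family name. Chmp2a in any comparison with the Chd8 siRNA libraries is therefore described without a test, and the 9 others were tested.

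ESCRT-III proteins are small charged proteins that sit as monomers in the cytosol and assemble into filaments on membranes. The filaments narrow and cut membrane necks from the inside, in the sorting of receptors into multivesicular endosomes, in the closure of autophagosomes, in cell division, and in the repair of the plasma membrane, lysosomes, and the nuclear envelope. The AAA ATPases Vps4a and Vps4b take the filaments apart. Microglia, the resident phagocytes of the brain, move engulfed material through this endosomal and lysosomal route. Chd8 encodes a chromatin remodeler and Tsc2 a subunit of the complex that restrains mTOR signaling, and both are autism-related genes.

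The data comprised 9 libraries of total RNA from C57BL/6J primary microglia, 3 for each siRNA. The cells were shaken off mixed glial cultures of embryonic brains, and every group, the control included, received an siRNA with a transfection reagent, so no library represented untreated cells. The methods describe RNA isolation 3 days after siRNA treatment and the results section describes 3 days of LPS stimulation, while the sample descriptions name no LPS. Per the methods, different mouse brains gave the cultures that served as biological replicates. Whether libraries of the same replicate number shared a culture is not given in the sources used here. Without the replicate number as a block, p-values measure the spread between libraries of a group and ignore the number. With the block, they measure the spread left after differences between the numbers. Total counts ranged from 16913448 to 33213801 per library, and 3 counts, taken as the floor of detection, came to 0.0903 to 0.177 CPM. CPM are counts divided by the scaled size of the library. In the Chd8 siRNA libraries, Chd8 was at 86.8, 44.5, and 38.3 CPM against 117.9, 97.4, and 93.6 CPM in control. In the Tsc2 siRNA libraries, Tsc2 was at 24.6, 30.6, and 36.5 CPM against 40.8, 39.9, and 38.9 CPM. Neither targeted gene overlapped with control, but neither passed edgeR's test (adjusted p = 1.00 for both), and with the replicate number as a block Chd8 fell by 0.93 on the log2 scale (edgeR, adjusted p = 0.00777) while Tsc2 did not pass (log2 fold change −0.39, adjusted p = 0.219). Without control library 2, control library 3, or Chd8 siRNA library 2, the blocked log2 fold change of Chd8 was −0.85, −0.88, and −0.86 and missed the FDR threshold (edgeR, adjusted p = 0.0586, 0.0795, and 0.0821). That of Tsc2 ranged from −0.53 to −0.24 with the block when 1 library was left out. The 12 microglia markers summed to between 2435 and 3301 CPM in all libraries, and 7 astrocyte markers to between 11.6 and 106 CPM with overlapping groups. The 5 neuron markers, 4 of them at or under 1 CPM in every library, summed to between 2.61 and 3.37 CPM in Tsc2 siRNA and between 4.22 and 15.2 CPM in control libraries, and their part in the Tsc2 siRNA results was not tested. In bulk RNA, fewer cells of a type and less RNA per cell cannot be told apart.

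Chmp2a was the member with the largest difference, and its sequences are shown first. CHMP2A acts late in the filament, where it caps the CHMP4 polymer together with CHMP3 and presents a short tail helix to VPS4. The gene lies on the minus strand at chr7:13032010-13034807 (GRCm38, the assembly of mm10) and overlaps no other annotated gene. It has 6 annotated transcripts. Chmp2a-201, the main coding transcript, has 6 exons, 949 bases, and 666 coding bases. The third exon, 180 bases at chr7:13032642-13032821, separates it from 2 short coding forms. Chmp2a-204 skips this exon, and Chmp2a-206 keeps only the first 30 bases of it, shown in capitals.
Chmp2a exon 3: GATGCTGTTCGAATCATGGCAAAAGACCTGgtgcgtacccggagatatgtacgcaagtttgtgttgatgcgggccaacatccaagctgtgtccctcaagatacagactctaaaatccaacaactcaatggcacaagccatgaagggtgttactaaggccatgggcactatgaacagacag
The 76 bases that follow, at chr7:13032566-13032641, are intron 3, which the annotated retained-intron transcript Chmp2a-202 keeps. A read with this stretch can come from that transcript or from unspliced RNA, which total RNA also holds.
Chmp2a intron 3: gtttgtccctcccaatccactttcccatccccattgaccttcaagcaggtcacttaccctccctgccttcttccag

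Chmp2a was at 33.4, 56.0, and 43.2 CPM in the control siRNA libraries 1 to 3, at 65.8, 112.7, and 90.0 CPM in the Chd8 siRNA libraries, and at 42.5, 62.8, and 41.5 CPM in the Tsc2 siRNA libraries. Every Chd8 siRNA library was above every control and every Tsc2 siRNA library, while the Tsc2 siRNA and control libraries overlapped. The means were 44.2 ± 11.3 in control, 89.5 ± 23.4 in Chd8 siRNA-, and 48.9 ± 12 CPM in Tsc2 siRNA-treated microglia (SD, n = 3). The log2 fold change in Chd8 siRNA was 1.02 with a standard error (SE) of 0.26 and a 95% interval from 0.45 to 1.59. Taking libraries with the same replicate number together, Chd8 siRNA over control gave ratios of 1.97, 2.01, and 2.08, so the ratio spread less between the 3 numbers than the level did. With a pseudocount of 0.5 CPM, a ratio above 1.9 at all 3 replicate numbers was found for 14 of 16273 genes (0.086%). This cutoff lies just under the lowest ratio of Chmp2a, so the place of Chmp2a among them was fixed in advance. These Chd8 siRNA values are those that put Chmp2a on the list and are no evidence in addition to it.

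The Tsc2 siRNA libraries played no part in the choice of Chmp2a but the control libraries did, so the values and tests that follow are not independent of that choice. In Tsc2 siRNA, Chmp2a had a log2 fold change of 0.15 (SE 0.25, 95% interval −0.42 to 0.72; edgeR, adjusted p = 1.00). The ratios to the control library of the same number were 1.27, 1.12, and 0.961, higher in 2 of 3, and a two-sided exact permutation test gave p = 0.7 where 0.1 is the lowest p that 3 against 3 libraries allow. This interval reaches past a 1.5-fold increase. With the replicate number as a block the log2 fold change was 0.15 (SE 0.10) with a 95% interval from −0.07 to 0.37, which leaves out a 1.5-fold change in either direction (edgeR, adjusted p = 0.664). Chd8 siRNA over Tsc2 siRNA gave a log2 fold change of 0.87 (SE 0.26) and ratios of 1.55, 1.79, and 2.17, again as a description.

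**Figure D1:**
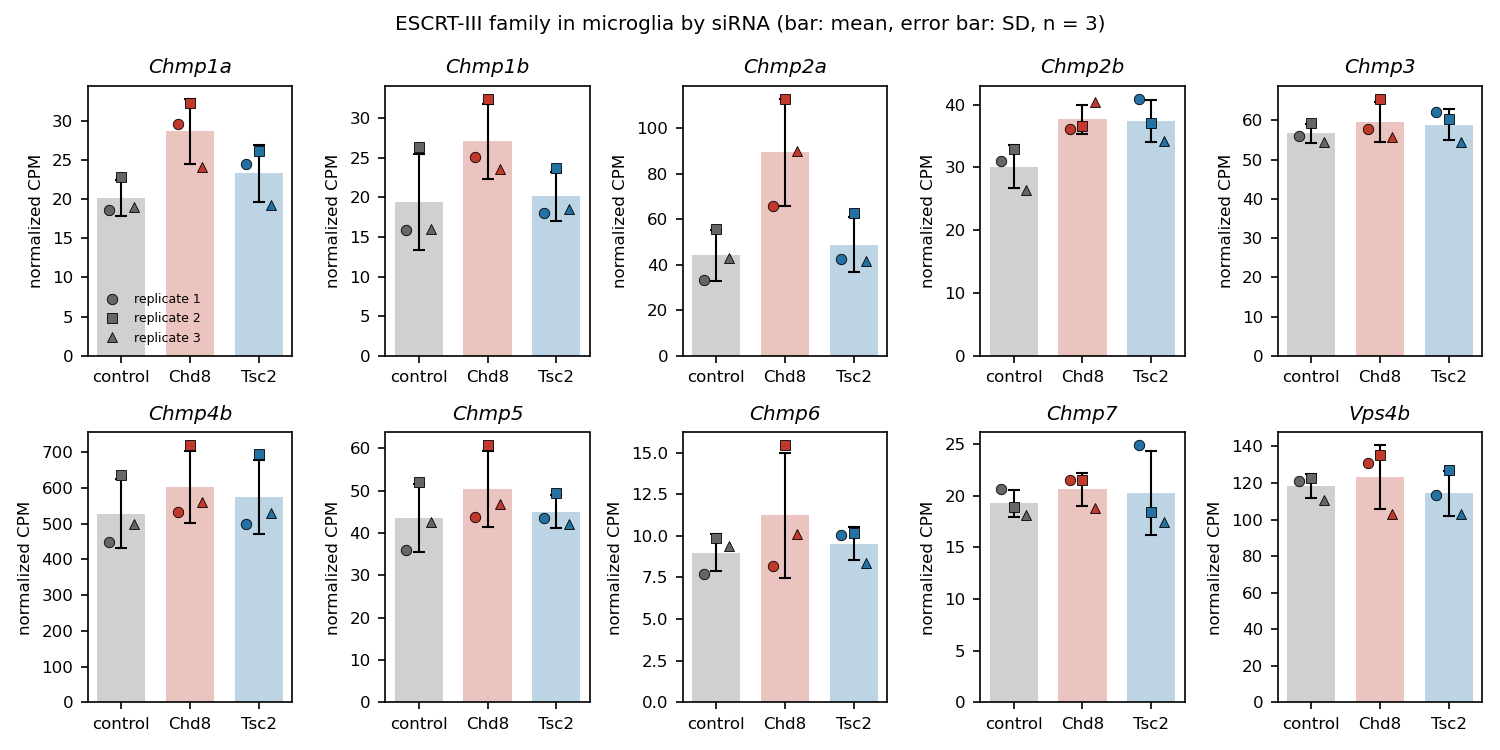
Normalized CPM of each of the 10 ESCRT-III family members in control, Chd8, and Tsc2 siRNA libraries. Bars are means with SD error bars (n = 3), symbols are the replicate numbers, and each panel has its own axis from 0. Chmp2a in the Chd8 siRNA libraries lies between 65.8 and 112.7 CPM, above all 6 other libraries, and Chmp4b is the only member above 400 CPM.

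Chmp2b, the paralog that shares the VPS4-recruiting role and is mutated in a familial frontotemporal dementia, was at 31.1, 33, and 26.4 CPM in control, 36.1, 36.7, and 40.4 CPM in Chd8 siRNA, and 40.9, 37.0, and 34.3 CPM in Tsc2 siRNA libraries. Both knockdown groups lay above the control group without overlap. The log2 fold changes were 0.32 (SE 0.14) after Chd8 siRNA, and 0.31 (SE 0.14) with Tsc2 siRNA, against the same control libraries, and neither passed the test (edgeR, adjusted p = 1.00 for both). Chd8 siRNA against Tsc2 siRNA, which leaves the control libraries out, gave overlapping groups and a log2 fold change of 0.01 with a 95% interval from −0.30 to 0.32.

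Chmp3, the partner of CHMP2A in the cap, was at 56.1, 59.4, and 54.4 CPM in control, 57.7, 65.4, and 55.8 CPM in Chd8 siRNA, and 62.0, 60.2, and 54.4 CPM in Tsc2 siRNA libraries. All 3 groups overlapped. The log2 fold change was 0.07 (SE 0.12, 95% interval −0.19 to 0.34) in Chd8 siRNA and 0.06 (SE 0.12) in Tsc2 siRNA (edgeR, adjusted p = 1.00 for both). The interval in Chd8 siRNA leaves out a 1.5-fold change in either direction. Chmp3 overlaps 1700040L08Rik on the opposite strand, so its counts are uncertain to the extent that reads were not assigned by strand. The sample descriptions name a stranded kit and the methods an Illumina total RNA preparation, and whether strand was used in counting is not given in the sources used here.

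Chmp1a and Chmp1b act last, where they bind VPS4 and the microtubule-severing enzyme spastin. Chmp1a was at 18.6, 22.8, and 18.9 CPM in control, 29.6, 32.2, and 24.1 CPM in Chd8 siRNA, and 24.4, 26.2, and 19.2 CPM in Tsc2 siRNA libraries. The Chd8 siRNA libraries lay above all control libraries, and the Tsc2 siRNA libraries overlapped with both. Chmp1a had a log2 fold change of 0.51 (SE 0.18, 95% interval 0.11 to 0.91) in Chd8 siRNA and did not pass the test (edgeR, adjusted p = 1.00). With the replicate block the log2 fold change was 0.50 (SE 0.12; edgeR, adjusted p = 0.0679). The matched ratios were 1.59, 1.41, and 1.27 for Chd8 siRNA over control, and for Tsc2 siRNA over control 1.31, 1.15, and 1.02.

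Chmp1b, whose gene has 1 annotated transcript, was at 15.8, 26.4, and 16.0 CPM in control, 25.1, 32.4, and 23.6 CPM in Chd8 siRNA, and 18, 23.7, and 18.6 CPM in Tsc2 siRNA libraries. Control library 2 lay above Chd8 siRNA libraries 1 and 3, so the groups overlapped, but each Chd8 siRNA library was above the control library of its own number, with ratios of 1.59, 1.23, and 1.48. The log2 fold change in Chd8 siRNA was 0.48 (SE 0.23) without the block and 0.51 (SE 0.13) with it, and neither passed (edgeR, adjusted p = 1.00 and 0.0817). With all 9 libraries, Chmp1a and Chmp1b had the highest log2 fold changes of the 9 tested members, and which of them was higher depended on the fit. In limma-voom with the block, added after seeing the data, both had a log2 fold change of 0.52 and an FDR under 0.05 (adjusted p = 0.0282 for Chmp1a and 0.0386 for Chmp1b), beside 2.47% of all genes, and neither reached the 1.5-fold change that a call needed. For Tsc2 siRNA the value was 0.05 (SE 0.23; edgeR, adjusted p = 1.00). Chd8 siRNA against Tsc2 siRNA gave 0.43 (SE 0.23) for Chmp1b and 0.30 (SE 0.18) for Chmp1a (edgeR, adjusted p = 1.00 for both). With 1 library left out and no block, these ranged from 0.28 to 0.56 for Chmp1b and from 0.18 to 0.405 for Chmp1a. Chmp1b lies inside Gnal on the same strand, and Chmp1a overlaps Gm20388 and Rps12-ps9 on the opposite strand, so reads from these genes may have been counted for the members.

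Chmp5, a late regulator that binds the VPS4 cofactor encoded by Vta1, was at 36.0, 52.0, and 42.7 CPM in control, 43.7, 60.7, and 46.7 CPM in Chd8 siRNA, and 43.6, 49.4, and 42.0 CPM in Tsc2 siRNA libraries. The groups overlapped. Its log2 fold change was 0.21 (SE 0.18) in Chd8 siRNA and 0.05 (SE 0.18) in Tsc2 siRNA (edgeR, adjusted p = 1.00 for both).

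Chmp4b forms the core of the filament and was the most abundant member. It was at 447, 634, and 499 CPM in control, 531, 718, and 560 CPM in Chd8 siRNA, and 499, 693, and 529 CPM in Tsc2 siRNA libraries. The groups overlapped because the libraries of number 2 were high in all groups. Within each number, Chmp4b in Chd8 siRNA was 1.19, 1.13, and 1.12 times the control, and in Tsc2 siRNA 1.12, 1.09, and 1.06 times. The log2 fold changes of 0.19 (SE 0.19) and 0.12 (SE 0.19) did not pass (edgeR, adjusted p = 1.00 for both). With the block they were 0.20 (SE 0.06) and 0.12 (SE 0.06), both under 1.5-fold and not called (edgeR, adjusted p = 0.157 and 0.513).

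Chmp6 and Chmp7 start the filament, Chmp6 downstream of ESCRT-II on endosomes and Chmp7 at the nuclear envelope. Chmp6 had the lowest CPM of the family, at 7.73, 9.85, and 9.40 CPM in control, 8.21, 15.4, and 10.1 CPM in Chd8 siRNA, and 10.03, 10.2, and 8.37 CPM in Tsc2 siRNA libraries. Its log2 fold change of 0.32 (SE 0.25) in Chd8 siRNA came with a matched ratio of 1.57 at number 2 against 1.06 and 1.07 at the others. Without Chd8 siRNA library 2 the log2 fold change of Chmp6 was 0.026 without the block and 0.086 with it. Leaving out the same library without the block took Chmp4b to 0.051, Chmp5 to 0.056, and Chmp3 to 0.0047 on the log2 scale. Those fits keep the control library of number 2 unmatched. With the block the values were 0.21 for Chmp4b, 0.17 for Chmp5, and 0.031 for Chmp3. Chmp7 was at 20.7, 19.0, and 18.2 CPM in control, 21.5, 21.6, and 18.8 CPM in Chd8 siRNA, and 24.9, 18.4, and 17.4 CPM in Tsc2 siRNA libraries, with overlapping groups. Its log2 fold changes were 0.10 (SE 0.17) in Chd8 siRNA and 0.07 (SE 0.17) in Tsc2 siRNA, and both turned negative, −0.11 and −0.08, when its 3 retained-intron transcripts were left out (edgeR, adjusted p = 1.00 for all 6 values of Chmp6 and Chmp7 in these comparisons).

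Vps4b, the ATPase, was at 121.0, 122.8, and 110.7 CPM in control, 131.2, 135.1, and 103.0 CPM in Chd8 siRNA, and 113.4, 127.2, and 102.8 CPM in Tsc2 siRNA libraries. The groups overlapped, and the log2 fold changes were 0.06 (SE 0.14) and −0.05 (SE 0.14; edgeR, adjusted p = 1.00 for both). Vps4b was the only member below 0 in Tsc2 siRNA and the only one not higher at all 3 numbers in Chd8 siRNA.

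**Figure D2:**
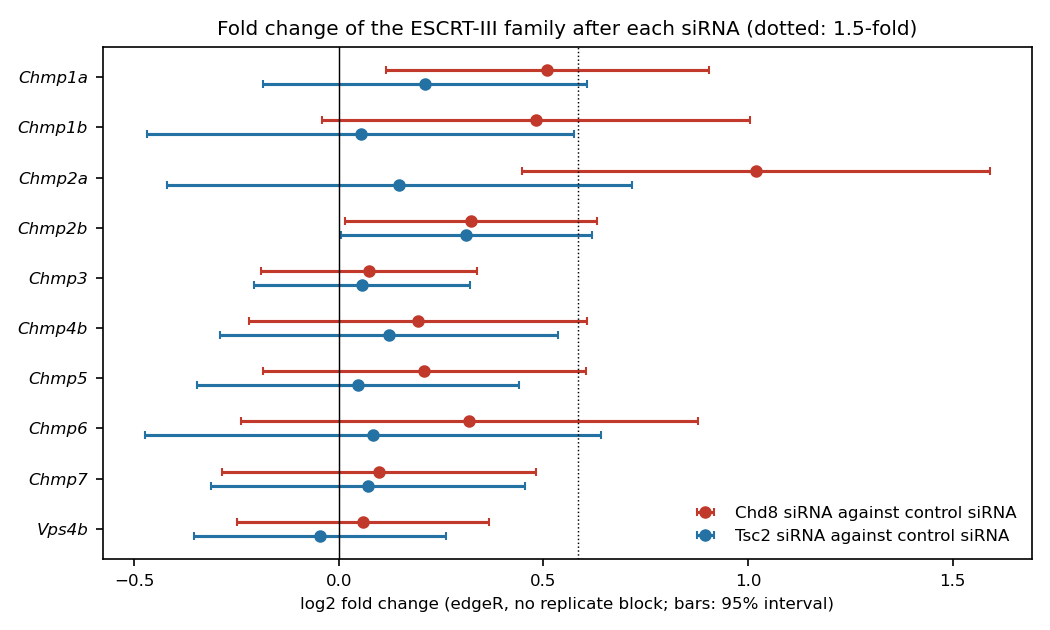
Log2 fold change of each member in Chd8 and Tsc2 siRNA against the same control libraries, with 95% intervals from edgeR without the replicate block (n = 3 per group). The dotted line is 1.5-fold, and Chmp2a in Chd8 siRNA, at 1.02, is the only value beyond it.

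Counted over the family, no member was called in any comparison, where a call needed a 1.5-fold change and an FDR under 0.05, 0 of 9 without Chmp2a in Chd8 siRNA and 0 of 10 in Tsc2 siRNA. The background was also 0, since edgeR called 0 of 16273 genes (0%) in each comparison. With the replicate block it called 87 genes (0.535%) in Chd8 siRNA, 63 (0.387%) in Tsc2 siRNA, and 36 (0.221%) between the knockdowns, again with 0 of the 9 or 10 members tested. These totals cover all genes, while Chmp2a, by whose values the family was chosen, enters the member counts only in Tsc2 siRNA against control. DESeq2 and limma-voom, the latter with or without the block, called 0 of the members tested as well. At an unadjusted p under 0.05, edgeR had 2 of 9 members in Chd8 siRNA, Chmp1a and Chmp2b, beside 3.82% of all genes, and 1 of 10 in Tsc2 siRNA, Chmp2b, beside 2.61%. Between the knockdowns it had 0 of 9 beside 3.1%. With the block these counts were 4 of 9 in Chd8 siRNA, Chmp1a, Chmp1b, Chmp2b, and Chmp4b, beside 12.8% of all genes, 1 of 10 in Tsc2 siRNA, again Chmp2b, beside 10.7%, and 2 of 9 between the knockdowns, Chmp1a and Chmp1b, beside 10.7%.

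All 9 members other than Chmp2a had a log2 fold change above 0 in Chd8 siRNA, where 47.8% of all genes did, and their median was 0.21 against −0.02 over all genes. Of the 9, Chmp7 turned to −0.11 with protein-coding transcripts only. Vps4b turned to −0.011 without Chd8 siRNA library 2 in the fit without the block, and was at 0.035 with the block. Of the 9, 8 were higher than control at all 3 replicate numbers, beside 17.7% of all genes. The groups were apart for Chmp1a and Chmp2b, 2 of 9, beside 4.17% of all genes. In Tsc2 siRNA 9 of 10 members were above 0 beside 47.6% of all genes, with a median of 0.08, 3 of 10 were higher at all 3 numbers beside 15.5% of all genes, and the groups were apart for Chmp2b alone, beside 3.87%. With 1 library left out, Chmp1b, Chmp2a, Chmp4b, Chmp5, Chmp6, and Chmp7 were each below 0 in Tsc2 siRNA in at least 1 fit. Both comparisons use the same control libraries, so these counts are not independent of each other. Nor are the members within a count, since 7 of 10 peaked in library 2 of every group on the CPM scale (10.46% of all genes). In Chd8 siRNA against Tsc2 siRNA, without the control libraries, all 9 members were above 0 (50.6% of all genes), with a median of 0.11, 5 of 9 were higher at all 3 numbers beside 16.2%, and the groups were apart for none of the 9 beside 4.02%.

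**Figure D3:**
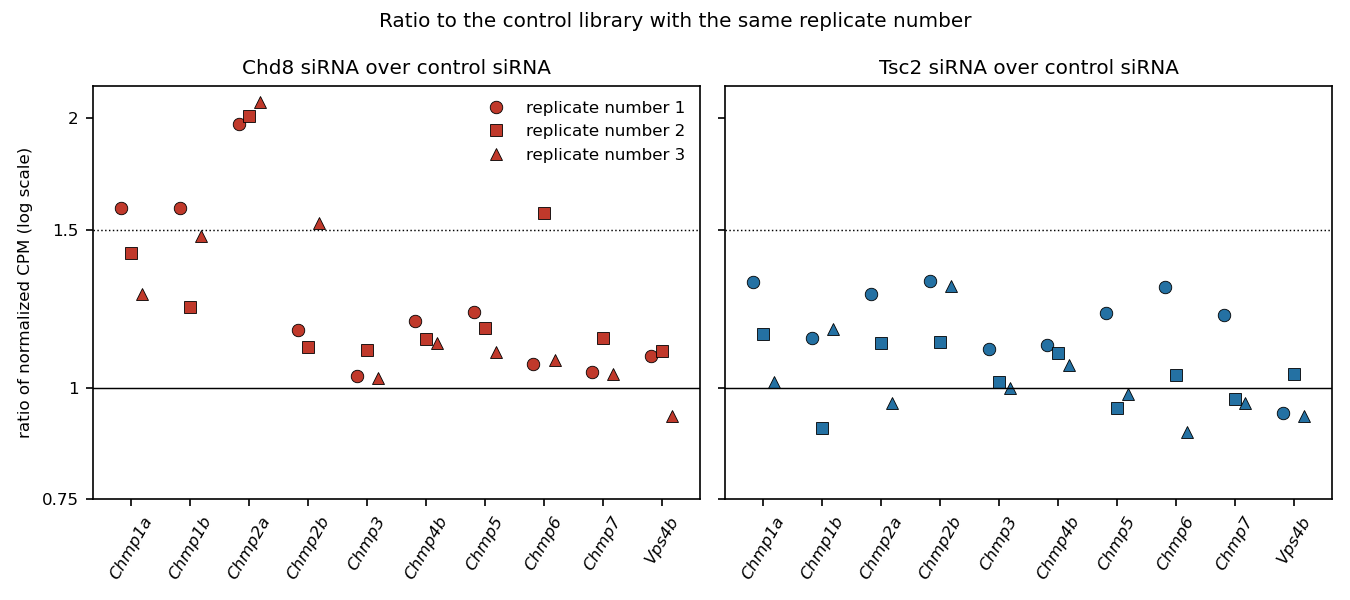
Ratio of each knockdown library to the control library with the same replicate number, on a log scale, for the 10 members. The 3 Chmp2a ratios in Chd8 siRNA lie between 1.97 and 2.08, and in Tsc2 siRNA between 0.961 and 1.27. The dotted line marks 1.5.

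On the CPM scale, in all 3 groups, library 2 had the highest CPM of Chmp1a, Chmp1b, Chmp2a, Chmp4b, Chmp5, Chmp6, and Vps4b, 7 of 10 members, where this held for 10.46% of all genes. The libraries of number 2 also had the lowest total counts of their groups, 16913448, 16949190, and 20997419. The pattern depended on the scale. When counts were divided by transcript length and scaled to a common total (TPM, from annotated lengths), 0 of 10 members and 1.73% of all genes peaked in library 2 of every group, and the part of depth in it was not tested.

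On this per-length scale, which allows genes to be compared, the control means ran from Chmp4b at 166 ± 20.0 through Vps4b at 26.9 ± 0.861, Chmp2a at 23.3 ± 4.84, Chmp3 at 20.5 ± 0.638, Chmp5 at 14.2 ± 1.97, Chmp2b at 8.003 ± 0.334, Chmp1a at 4.98 ± 0.287, Chmp1b at 3.77 ± 0.796, and Chmp7 at 3.53 ± 0.407 to Chmp6 at 3.28 ± 0.698 TPM (SD, n = 3). Neighbours in this order overlapped between Vps4b and Chmp2a, Chmp2a and Chmp3, Chmp1b and Chmp7, and Chmp7 and Chmp6. In the Chd8 siRNA libraries Chmp2a was at 37.8, 48.0, and 53.0 TPM, above Vps4b at 32.3, 26.1, and 26.0 in each library. This order was not particular to Chd8 siRNA, since Chmp2a was also above Vps4b in control library 2 (26.8 against 26.1 TPM) and in Tsc2 siRNA libraries 1 (23.13 against 23.11) and 2 (31.4 against 27.1). Its share of the summed level of the 10 members was 7.34%, 9.16%, and 8.75% in control, 11.7%, 15.1%, and 15.5% after Chd8 siRNA, and 8.45%, 9.62%, and 8.20% after Tsc2 siRNA. Chmp4b alone made up between 56.5% and 63.7% of the sum in every library.

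The per-length scale also changed which members stood apart. Chmp4b was at 143, 179, and 176 TPM in control and at 184, 185, and 193 in Chd8 siRNA libraries, without overlap. Chmp1a, Chmp1b, and Chmp5 were apart as well, so that 4 of 9 members were apart in Chd8 siRNA beside 3.22% of all genes, and Chmp2b no longer was, with 7.84 TPM in Chd8 siRNA library 2 against 7.89 in control library 2. Only 5 of 9 were higher at all 3 numbers, beside 13.4% of all genes, and the mean of Chmp3 was lower than in control by a log2 ratio of −0.02. The other 8 kept a mean above control on both scales, and 46.5% of all genes had one on the per-length scale. In Tsc2 siRNA, Chmp1a and Chmp2b were apart, 2 of 10 beside 5.26%, and 5 of 10 were higher at all 3 numbers beside 20%, more than the 3 of 10 on the CPM scale. Chmp3 and Vps4b had means below control, and the other 8 of 10 above it, beside 56.1% of all genes. Without Chmp2a, the 9 members summed to 224.5, 265, and 265 TPM in control, 285, 271, and 289 after Chd8 siRNA, and 251, 295, and 292 after Tsc2 siRNA.

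Chmp2a-201 carried the Chmp2a signal. It was at 30.9, 49.6, and 35.3 CPM in control, 61.4, 107.6, and 83.5 CPM in Chd8 siRNA, and 40.2, 61.0, and 35.6 CPM in Tsc2 siRNA libraries, which was between 81.7% and 97.1% of the counts of the gene. Its matched ratios in Chd8 siRNA were 1.99, 2.17, and 2.37, and in Tsc2 siRNA 1.30, 1.23, and 1.01. Tested in Tsc2 siRNA, this transcript had a log2 fold change of 0.24 (SE 0.30; edgeR over 41633 transcripts, adjusted p = 1.00).

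The 5 other transcripts together were at 2.52, 6.42, and 7.92 CPM in control, 4.43, 5.14, and 6.52 CPM in Chd8 siRNA, and 2.22, 1.84, and 5.95 CPM in Tsc2 siRNA libraries, with overlapping groups, so the higher level of the gene in Chd8 siRNA lay in Chmp2a-201. Chmp2a-203, which codes from an alternative first exon and has the same 666 coding bases, varied in its share. It held 6.81%, 6.62%, and 11.9% of the gene's counts in control, 3.26%, 0.906%, and 3.11% after Chd8 siRNA, and 3.61%, 1.82%, and 8.27% after Tsc2 siRNA. The Chd8 siRNA shares lay below the control shares, while its CPM (2.27, 3.70, and 5.14 against 2.15, 1.02, and 2.80) overlapped. For Tsc2 siRNA against control the share gave p = 0.3 and that of Chmp2a-201 p = 0.4 in two-sided exact permutation tests, which ignore the replicate number. At each of the 3 numbers the share of Chmp2a-203 was lower, and that of Chmp2a-201 higher, in the Tsc2 siRNA library than in control.

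Chmp2a-202, the form with the intron printed above, had between 5 and 43 counts per library. Chmp2a-204 and Chmp2a-206, the forms that lose all or most of the printed exon, had between 0 and 33 and between 0 and 40 counts, and the nonsense-mediated decay form Chmp2a-205 between 0 and 50 and did not pass the filter. Each of Chmp2a-204, Chmp2a-205, and Chmp2a-206 was at 0 in at least 1 control library. Salmon shares reads among transcripts that have the same exons, so these low counts are estimates and no order among them is read here. No Chmp2a transcript was called in Tsc2 siRNA, where edgeR called 0 and DESeq2 172 of 41633 transcripts and 1177 had an unadjusted p under 0.05 in edgeR.

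**Figure D4:**
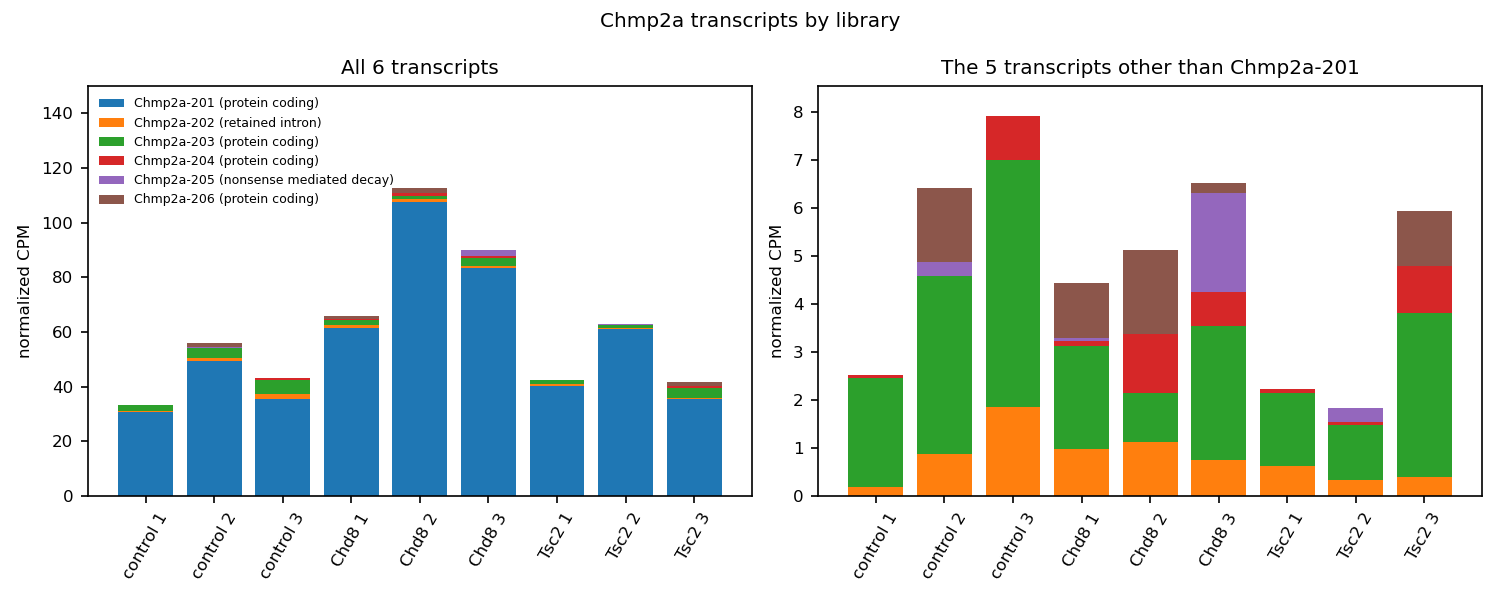
Normalized CPM of the 6 Chmp2a transcripts stacked by library, with all transcripts on the left and the 5 other than Chmp2a-201 on the right, on separate axes. Chmp2a-201 reaches 107.6 CPM in Chd8 siRNA library 2, and the other 5 sum to between 1.84 and 7.92 CPM with no separation of the groups.

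In the other members a single coding transcript held most counts, between 90.8% and 100% in Chmp1a, Chmp1b, Chmp2b, Chmp4b, Chmp5, and Chmp6. Chmp3, Chmp7, and Vps4b were more divided. Chmp3-201 held between 56.8% and 71.0%, Vps4b-201 between 71.2% and 82.0%, and Chmp7-201 between 55.5% and 92.6%. The wide range of Chmp7 came with its retained-intron transcript Chmp7-204, which had 127, 91, and 0 counts in control, 254, 77, and 75 after Chd8 siRNA, and 85, 107, and 198 after Tsc2 siRNA.

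The promoter of Chmp2a is shown because this member had the largest log2 fold change in Chd8 siRNA, and that of Chmp1a, one of the next 2 with Chmp1b, for comparison. RefSeq (GRCm38.p6) windows were matched for 7 of the 10 members, in 8 windows, and those of Chmp1b, Chmp6, and Chmp7 were not used here. The 250 bases before the RefSeq start of Chmp2a, chr7:13034778-13035027 on the minus strand, hold the core of the NRF1 motif on both strands, with 2 overlapping matches in capitals, 72 to 63 bases before the start.
Chmp2a promoter: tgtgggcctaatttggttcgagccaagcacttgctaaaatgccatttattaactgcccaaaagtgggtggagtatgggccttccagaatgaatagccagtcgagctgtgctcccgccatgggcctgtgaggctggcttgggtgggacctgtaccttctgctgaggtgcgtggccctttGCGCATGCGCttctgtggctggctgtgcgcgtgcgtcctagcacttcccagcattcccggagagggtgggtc
This start lies 30 bases inside that of Chmp2a-201 in the annotation used for the counts. The 250 bases before the start of Chmp1a, chr8:123212789-123213038 on the minus strand, hold 5 GC boxes, in capitals.
Chmp1a promoter: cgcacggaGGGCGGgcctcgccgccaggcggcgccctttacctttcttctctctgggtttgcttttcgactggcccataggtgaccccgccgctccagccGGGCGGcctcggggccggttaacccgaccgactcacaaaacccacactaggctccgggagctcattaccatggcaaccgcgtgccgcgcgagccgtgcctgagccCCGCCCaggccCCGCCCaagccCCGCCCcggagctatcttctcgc

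Both strands were searched for 7 motifs, and the share of all 32851 promoter windows with each is given beside it. The NRF1 core GCGCATGC was in 2.26% of windows and among the members in that of Chmp2a only. The GC box GGGCGG, in 32.7% of windows, was in those of Chmp1a, Chmp3, and Chmp5. The ETS core CCGGAA, in 12%, was in those of Chmp3, Chmp4b, and Chmp5, and CCAAT, in 33.8%, in that of Chmp3. The cyclic AMP response element TGACGTCA (1.55%), the E-box CACGTG (6.02%), and TATAAA (12.4%) were in none of the 8 windows. These matches describe the letters only.

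Ube2m, which encodes an E2 enzyme for NEDD8, is the nearest gene, 312 bases upstream of Chmp2a on the same strand. It was at 61.4, 67.7, and 55.4 CPM in control, 56.3, 58.2, and 73.2 CPM in Chd8 siRNA, and 56.4, 56.2, and 50.6 CPM in Tsc2 siRNA libraries, overlapping in all groups, with a log2 fold change of 0.02 (SE 0.14) in Chd8 siRNA. Trim28, a corepressor whose gene lies 974 bases beyond the other end of Chmp2a, was at 44.4, 47.0, and 53.0 CPM in control, 32.2, 41.3, and 45.0 CPM in Chd8 siRNA, and 33.7, 36.6, and 40.6 CPM in Tsc2 siRNA libraries. Its log2 fold change was −0.28 (SE 0.16) in Chd8 siRNA and −0.38 (SE 0.16) in Tsc2 siRNA, where the groups were apart on the lower side, as for 4.23% of all genes.

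Of the other genes within 50 kb, Zbtb45 was at 3.05, 1.72, and 3.21 CPM in Chd8 siRNA against 5.36, 3.57, and 5.53 CPM in control, apart on the lower side, as for 4.92% of all genes, with a log2 fold change of −0.85 (SE 0.36). Zfp446 had a log2 fold change of 0.38 (SE 0.45) with overlapping groups, Mzf1 and Vmn1r85 stayed under 2 CPM in every library, with Vmn1r85 lower in Tsc2 siRNA than in control without overlap (log2 fold change −0.37, SE 0.52), and Slc27a5 had 0 counts. None of the 6 neighbours that passed the filter was called in either knockdown (edgeR, adjusted p = 1.00 for each), and Ube2m and Zfp446 were the only ones of the 6 above 0 in Chd8 siRNA.

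**Figure D5:**
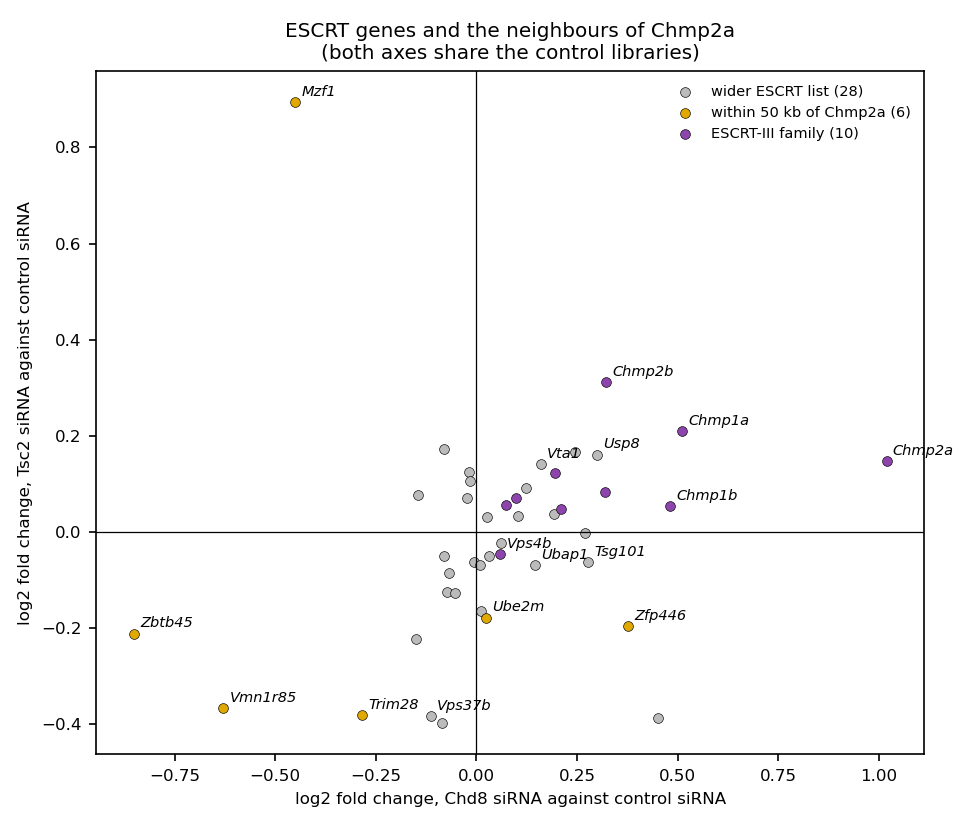
Log2 fold change in Chd8 siRNA (x axis) and Tsc2 siRNA (y axis) for the 10 members, 28 genes of a wider ESCRT list, and the 6 tested genes within 50 kb of Chmp2a. Both axes share the control libraries, so the points may align with the diagonal for that reason alone. Chmp2a lies at 1.02 and 0.15, to the right of all other points.

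A wider list of 30 ESCRT genes that are not among the 10 members was set beside them. It covered ESCRT-0, ESCRT-I, and ESCRT-II, which gather ubiquitinated cargo and bend the membrane, and the partners, cofactors, and deubiquitinases of ESCRT-III. It also held the ESCRT-III genes Chmp4c and Ist1 and the ATPase Vps4a, close relatives of the members. In Chd8 siRNA the log2 fold changes were −0.08 for Chmp4c, which stayed under 2 CPM in every library, −0.02 for Ist1, and 0.19 for Vps4a, so not every ESCRT-III gene lay above 0. In the annotation 29 were found and 28 passed the filter. None was called in any comparison, with or without the replicate block. In Chd8 siRNA 15 were above and 13 below 0, with a median log2 fold change of 0.01, beside a median of 0.21 in the 9 tested members. At an unadjusted p under 0.05 edgeR had 0 of the 28 without the block, beside 3.82% of all genes, and 3 with it, under the 12.8% of all genes. The groups were apart for 0 of 28, beside 4.17% on the higher side, and 7 of 28 were higher at all 3 numbers beside 17.7%. In Tsc2 siRNA 12 were above and 16 below 0, with a median of −0.04, and 0 of 28 reached that p without the block, beside 2.61%, and 2 with it, under the 10.7% of all genes. None was apart on the higher side and Vps37b on the lower, and 4 of 28 were higher at all 3 numbers beside 15.5%. In Chd8 siRNA against Tsc2 siRNA 21 were above and 7 below, with a median of 0.07. Here Tsg101, Ubap1, and Vps25 were apart, 3 of 28 beside 4.02% of all genes, 7 of 28 were higher at all 3 numbers beside 16.2%, and 0 reached that p without the block, beside 3.1%, and 2 with it, under the 10.7% of all genes.

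Tsg101, the ESCRT-I subunit that binds ubiquitin and viral late domains, was at 30.7, 37.5, and 24.8 CPM in control, 36.0, 42.1, and 34.7 CPM in Chd8 siRNA, and 28.7, 29.1, and 31.2 CPM in Tsc2 siRNA libraries. Its log2 fold change was 0.28 (SE 0.17) in Chd8 siRNA and 0.34 (SE 0.17) in Chd8 siRNA against Tsc2 siRNA. Usp8, a deubiquitinase of endosomal cargo, was at 109.3, 149.1, and 111.7 CPM in control and 126.1, 185.8, and 143.7 CPM in Chd8 siRNA libraries, higher at each number. Its log2 fold change was 0.30 (SE 0.19), and with the block 0.30 (SE 0.08; edgeR, adjusted p = 0.0836).

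Vps37b, another ESCRT-I subunit, was at 14.3, 19.5, and 16.8 CPM in Tsc2 siRNA against 21.6, 22.4, and 22.05 CPM in control, apart on the lower side, with a log2 fold change of −0.38 (SE 0.19). Vta1, the VPS4 cofactor, had a log2 fold change of 0.14 (SE 0.13) in Tsc2 siRNA with overlapping groups. Ubap1, a further ESCRT-I subunit, was at 116.6, 139.6, and 117.4 CPM in Chd8 siRNA against 99.4, 112.5, and 110.0 CPM in Tsc2 siRNA libraries, with a log2 fold change of 0.21 (SE 0.12). None of these 5 genes passed (edgeR, adjusted p = 1.00 for each without the block).

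The profile of Chmp2a over the 9 libraries was compared with that of every other gene that passed the filter. The measure was the root mean square difference of log2 CPM, with a pseudocount of 0.5, after each gene was centred on its own mean. Over 16272 genes the median difference was 0.64. The 5 lowest were G6pc3 (0.107), which encodes a glucose-6-phosphatase, Sgsm2 (0.111), a small G protein regulator, Crlf2 (0.131), the receptor chain for thymic stromal lymphopoietin, Kctd21 (0.185), and Fbxo4 (0.186), a ubiquitin ligase subunit. Crlf2 was at 16.4, 27.2, and 20.9 CPM in control, 25.9, 45.9, and 35.5 CPM in Chd8 siRNA, and 19.3, 25.3, and 17.5 CPM in Tsc2 siRNA libraries. G6pc3 was at 1.66, 3.14, and 2.57 CPM in control and 3.85, 5.68, and 4.69 CPM in Chd8 siRNA libraries. Sgsm2 was lower, at 0.754, 1.42, and 0.987 CPM in control and 1.57, 3.06, and 3.17 CPM in Chd8 siRNA libraries. At such levels the pseudocount narrows differences, and how far the order of these 5 genes depends on it was not tested. The closest family member was Chmp1b at rank 40 with 0.285, followed by Chmp1a at rank 221. Chmp3, the partner of CHMP2A, was at rank 2650. These differences are a description over 9 libraries that share the depth and the replicate numbers.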

How the data were processed

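RNA-seq of 9 libraries of primary microglia was used, grouped by the siRNA in the sample descriptions. The authors quantified reads with salmon 0.14.1 on mm10 and deposited estimated counts per transcript, not normalized; the transcript release is not given in the sources used here. GENCODE mouse release 21 assigned 139852 of 140948 transcripts to genes (the 1096 others held 0.27% of counts), and counts were summed per gene and rounded.

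Genes were tested with edgeR 4.0.16 (quasi-likelihood, filterByExpr, TMM, all 9 libraries, siRNA as the only factor) in R 4.3.3, with Benjamini-Hochberg adjustment over 16273 genes and calls needed 1.5-fold at an FDR of 0.05. CPM are TMM-normalized. Per-length levels divide counts by annotated transcript length and scale to a common total (TPM). Single values were compared by two-sided exact permutation tests on log2 CPM with a pseudocount of 0.5. The count floor covers counting error only. The edgeR gene fits, with and without the block, were tested on simulated counts, and the other steps were not.

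Replicate numbers in the sample titles paired the libraries. The deviations of all genes from their group means had correlations between 0.24 and 0.52 for the 9 same-number pairs and between −0.38 and 0.04 for the 18 others, so fits with the number as a block are given where they matter.

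Members, lists, and tests were chosen with earlier results of these data known. Named genes were the 10 members, the targeted genes, genes within 50 kb of Chmp2a, the 5 nearest profiles, and, of the wider list, any called gene and the 2 with the lowest p in each comparison. Alternatives were RLE and upper-quartile scaling, no count filter, DESeq2 1.42.0, limma-voom 3.58.1, 2 groups only, protein-coding transcripts only, the replicate block, and each library left out.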

Additional observations from a re-analysis of the deposited data

How the results depend on the processing

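Of the tested members, 0 were called at 1.5-fold under any alternative, the replicate block included, although Chmp1a and Chmp1b in Chd8 siRNA had an FDR under 0.05 in limma-voom with the block. The number of genes called over the whole table did move. In Chd8 siRNA it was 87 with the block, 2 with no count filter, 9 with DESeq2, 140 with limma-voom and the block (added after seeing the data), and 0 to 81 with 1 library left out (20 to 81 with the block). In Tsc2 siRNA these were 63, 1, 6, 90, and 0 to 131 (7 to 131 with the block), and in Chd8 siRNA against Tsc2 siRNA 36 with the block, 5 with DESeq2, 58 with limma-voom and the block, and 0 to 130 (4 to 130 with the block). The targeted Chd8 passed with the block (log2 fold change −0.93, and −1.32 to −0.64 over both fits with 1 library left out), but missed the threshold in 3 of the 6 blocked fits without 1 library (edgeR, adjusted p = 0.0586 to 0.0821) at log2 fold changes between −0.88 and −0.85. Leaving aside Chmp2a in comparisons with Chd8 siRNA, where it is described only, the block changed no other call named here. On the per-length scale, also added later, 4 of the 9 tested members in Chd8 siRNA (3.22% of all genes) and 2 of 10 in Tsc2 siRNA (5.26%) were apart from control.

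Small log2 fold changes turned sign. Chmp7 with protein-coding transcripts only was at −0.11 in Chd8 siRNA, with and without the block, and at −0.080 without and −0.10 with the block in Tsc2 siRNA; the alternative removes the retained-intron counts. With 1 library left out, with and without the block, Vps4b in Chd8 siRNA ranged from −0.011 to 0.18. Without the block, Chd8 siRNA ranges were 0.33 to 0.77 for Chmp1b, 0.0047 to 0.13 for Chmp3, 0.051 to 0.35 for Chmp4b, 0.056 to 0.36 for Chmp5, 0.026 to 0.50 for Chmp6, and 0.058 to 0.17 for Chmp7. In Tsc2 siRNA, with and without the block, Chmp1b ranged from −0.079 to 0.34, Chmp2a from −0.070 to 0.36, Chmp4b from −0.033 to 0.28, Chmp5 from −0.071 to 0.20, Chmp6 from −0.11 to 0.21, Chmp7 from −0.10 to 0.17, Vps4b from −0.13 to 0.0285, and Chmp2a-201 from −0.033 to 0.47. Chmp2a in Chd8 siRNA stayed between 0.82 and 1.23. The SEs of the members, between 0.12 and 0.26 without and between 0.062 and 0.20 with the block, limit what 3 libraries per group could detect.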
